A study of Arabidopsis thaliana with 9 samples.

Results

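The nuclear photosystem and light-harvesting genes of Arabidopsis thaliana are described here across the knock-out line clpp2-2, the knock-out line clpp2-1 and the wild type (wt). The set holds 47 genes, listed by gene identifier and function: 6 LHCA genes, 14 LHCB genes, 12 PSA genes, 10 PSB genes, PETC, PETE1, PETE2, ATPC1 and ATPD. All 47 are among the 22254 genes of the table, and all 47 were among the 20294 genes tested. The study asked what the loss of CLPP2 (AT5G23140), which encodes the peptidase of the mitochondrial Clp complex, does to seedlings. Each genotype has 3 libraries of total RNA from whole seedlings, numbered 1 to 3. The clpp2-2 and clpp2-1 seedlings are knock-out mutants of CLPP2 made in Columbia-0, and the wt seedlings are Columbia-0, so all 9 libraries share that background. All seedlings were 2 weeks old and grew in liquid culture under 16 h of light at 150 µmol m-2 s-1 and 22 °C, followed by 8 h of dark at 18 °C. The position of each mutation, the number of seedlings per library and the hour of harvest are not given in the sources used here. The labels do not say if replicates are separate cultures, so p-values measure only the spread between these libraries, which may be technical.

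Photosynthetic electron transport runs in the thylakoid membrane of the chloroplast. Photosystem II takes electrons from water, photosystem I passes them on to ferredoxin, a cytochrome complex and plastocyanin connect the photosystems, and ATP synthase uses the resulting proton gradient. Each photosystem has reaction-centre subunits encoded in the plastid genome, while the antenna proteins, the oxygen-evolving proteins and many small subunits come from nuclear genes and are imported. Nuclear photosystem genes are known to be transcribed together, under control of light, the circadian clock and signals from the chloroplast.

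CLPP2 RNA fell in both lines. It stood at 4.64, 4.64 and 4.52 CPM (the usual depth-scaled unit, each count divided by the normalised size of its library in megacounts) in clpp2-2, at 5.72, 4.88 and 6.08 CPM in clpp2-1 and at 44.5, 46.5 and 42.9 CPM in wt. Every clpp2-2 and clpp2-1 library lay below every wt library (log2 -3.28 and -3.00, adjusted p = 1.33e-06 and 2.38e-06, edgeR), and the remaining reads cannot be placed before or after the mutations. The libraries held 36043744 to 36477053 counts each, and the 47 genes took 2.75 to 4.35% of them. Whole seedlings hold several organs, so a change in the share of green cells and a change in RNA per green cell cannot be told apart in these data. All 8 root markers tested had counts in every library, and their summed level was 1646 to 1982 CPM in clpp2-2, 2041 to 2454.5 CPM in clpp2-1 and 2179 to 3611 CPM in wt. Of 8 seed storage markers 6 were tested, and the summed level of the 8 was 0.632 to 1.103 CPM in clpp2-2, 0.896 to 12.9 CPM in clpp2-1 and 0.350 to 107 CPM in wt. None of the root or seed storage markers passed the test in either line (edgeR). In clpp2-2 1 of 8 and 6 of 6 had an unadjusted p under 0.05, where 29.5% of all genes did. In clpp2-1 none did, where 6.44% of all genes did. All 8 root and all 6 seed storage markers tested had log2 fold changes below 0 in clpp2-2, with medians of -0.46 and -6.61. In clpp2-1 4 of 8 and 6 of 6 were below 0, with medians of -0.05 and -3.10. The seed storage sum was 107 CPM in wt 1 and 23.3 CPM in wt 2, but 0.350 CPM in wt 3, below every library of both lines.

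The wt libraries stood apart from each other in these genes. Within wt, all 47 genes were highest in wt 2 and all 47 were lowest in wt 3, against 37.5% and 31.8% of all genes tested. The wt 2 level was 1.15 times (LHCB4.3) to 1.83 times (LHCB1.4) the mean of wt 1 and wt 3 over the 46 genes above 1 CPM, with a median of 1.37 times. The same order was seen in the summed levels of Rubisco small subunits and activase and of chlorophyll synthesis genes. In wt 2 these sums were 39.3% and 29.4% above the mean of wt 1 and wt 3, against 40.6% for the 47 genes. The clock gene sum was 0.411% above that mean, but a sum can hide opposite changes of single genes, so it does not show whether clock genes differed. Within clpp2-2, 46 of the 47 genes were lowest in library 1, against 36.1% of all genes, and the mean of libraries 2 and 3 was 1.12 times (PSAH1) to 1.88 times (LHCB1.1) the level of library 1. Within clpp2-1, 43 of the 47 genes were lowest in library 3, against 30.8% of all genes. The median coefficient of variation of the 46 genes was 12.3% in clpp2-2, 5.23% in clpp2-1 and 20.4% in wt, where all genes above 1 CPM had 5.89%, 7.11% and 9.00% in the same order. The median variation of the photosystem genes was thus above that of all genes in clpp2-2 and wt and below it in clpp2-1.

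**Figure D1:**
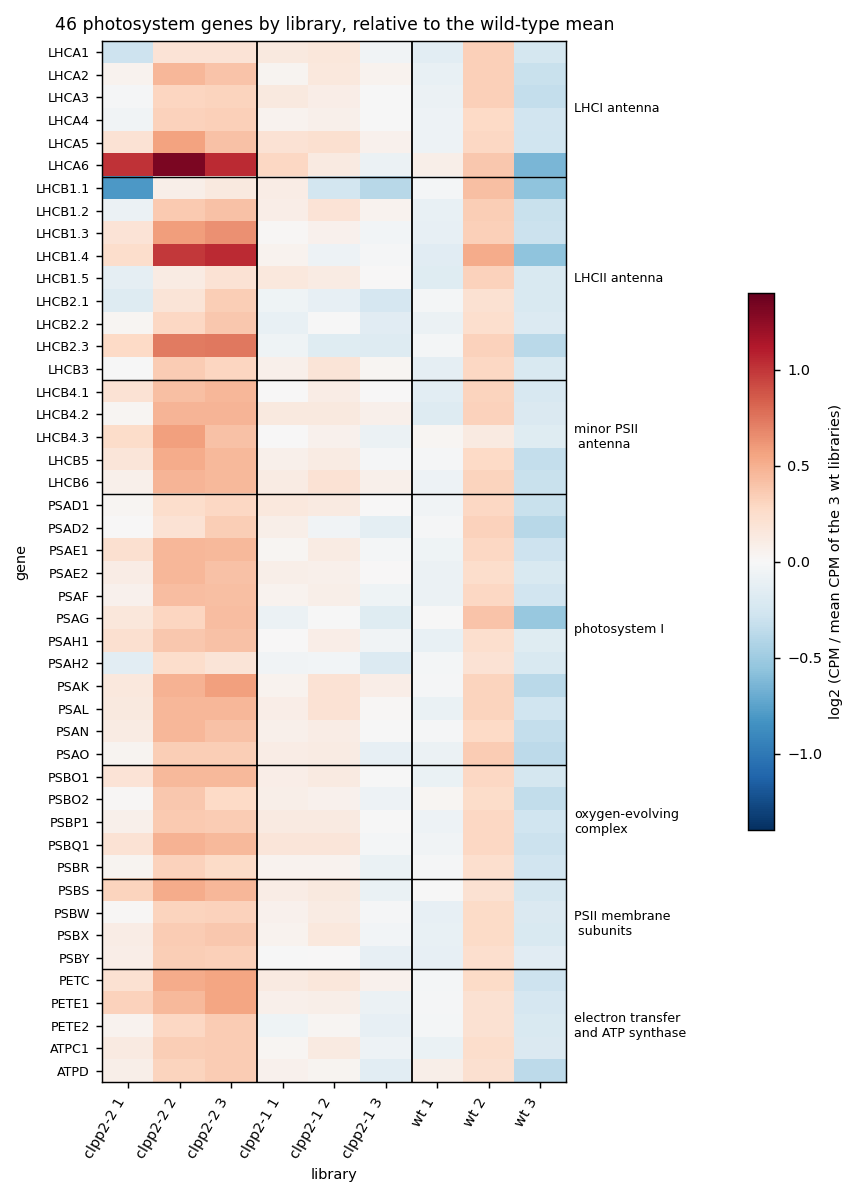
Each row is 1 gene and each column 1 library. Colour gives log2 of the CPM over the mean CPM of the 3 wt libraries, from blue (lower) to red (higher), for the 46 genes above 1 CPM, grouped by role. The wt 2 column is red and the wt 3 column blue in every row, libraries 2 and 3 of clpp2-2 are red in every row, and LHCA6 and LHCB1.4 hold the deepest red.

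Summed over the 47 genes, the level was 34599, 43932 and 44710 CPM in clpp2-2, 33882, 34609 and 31752 CPM in clpp2-1, and 30645, 40399 and 26827 CPM in wt. Libraries 2 and 3 of clpp2-2 lay above every wt library, while clpp2-2 1 and all 3 clpp2-1 libraries lay inside the wt range. The mean was 41080 ± 5630 CPM in clpp2-2, 33410 ± 1480 CPM in clpp2-1 and 32620 ± 7000 CPM in wt (SD, n = 3 each), which is 1.26 times wt for clpp2-2 and 1.02 times wt for clpp2-1. The root marker sum was lowest in wt 2 among the wt libraries, at 2179 CPM against 3611 CPM in wt 1 and 2764 CPM in wt 3. In clpp2-2 it was lowest in library 1 (1646 CPM), where the photosystem genes were lowest too. The part of tissue makeup in these sums was not tested.

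**Figure D2:**
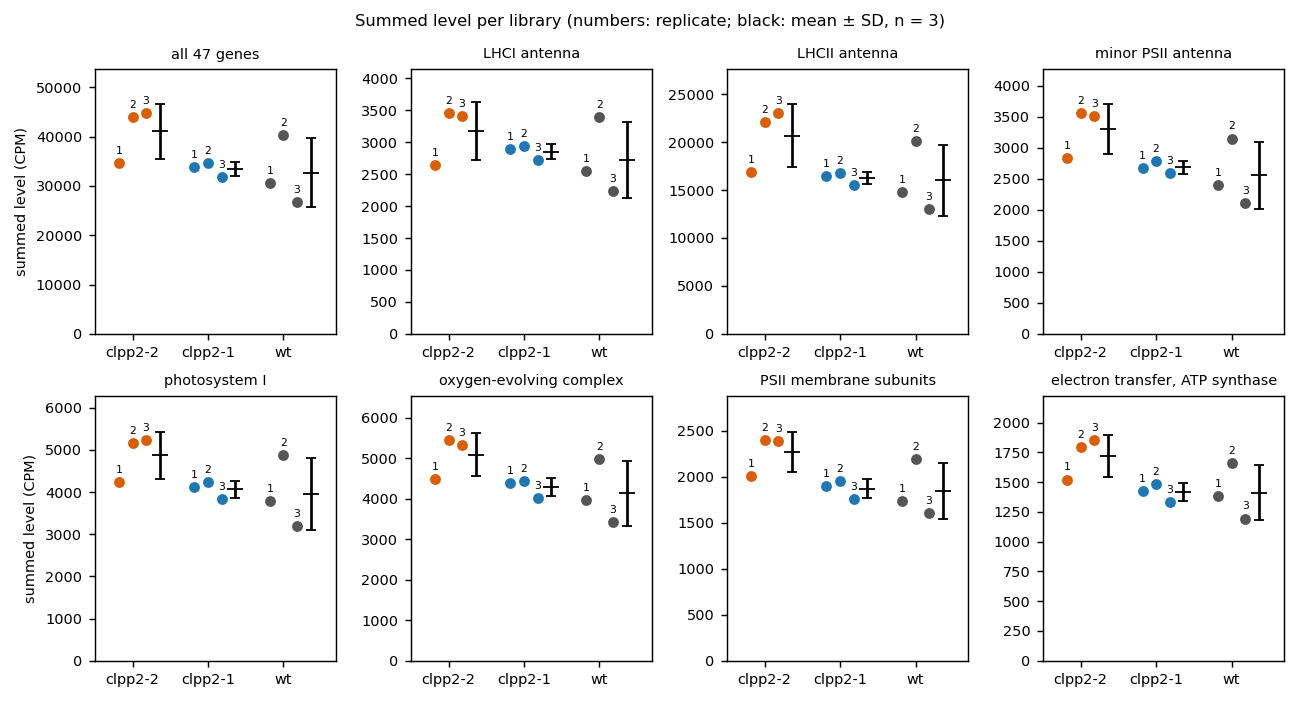
Points are the summed CPM of all 47 genes and of the genes of each role group in each library, with the replicate number above, and the black mark is the mean ± SD (n = 3). In every panel clpp2-2 2 and clpp2-2 3 lie above all other libraries, and wt 2 lies near them, apart from wt 1 and wt 3.

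Levels between genes were compared per length, as CPM per kilobase of the longest annotated transcript. LHCB1.3 (AT1G29930) led in all 3 genotypes, at 11350 ± 1821 CPM per kb in clpp2-2, 8194 ± 300.8 in clpp2-1 and 8112 ± 1914 in wt (SD, n = 3 each). LHCB1.5 followed with 2184 ± 251 CPM per kb in clpp2-2, 2215 ± 113 in clpp2-1 and 2083 ± 445 in wt, and PSBR with 1986 ± 201, 1716 ± 97.6 and 1714 ± 303 CPM per kb in the same genotypes. LHCB1.3 stood clear of LHCB1.5 in every genotype, while LHCB1.5 and PSBR did not differ beyond their spread in wt or clpp2-2. From the fourth gene, PSBO1 at 1132 ± 225 CPM per kb in wt, to LHCB1.4 at 128 ± 50.0 CPM per kb in wt, neighbours in the order lay closer together than their SDs. PETE1 (39.2 ± 6.15 CPM per kb in wt), LHCA5 (32.9 ± 6.62), LHCB2.3 (14.2 ± 3.41), LHCA6 (3.11 ± 1.03) and LHCB4.3 (2.89 ± 0.303) formed a low group. PSBQ2 was listed with 0, 27 and 0 counts in clpp2-2, 18, 0 and 0 counts in clpp2-1 and 19, 26 and 0 counts in wt. Its related copy PSBQ1 (76.5% identical in coding sequence) took 99.9% of their summed counts, and no fold is read from PSBQ2.

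**Figure D3:**
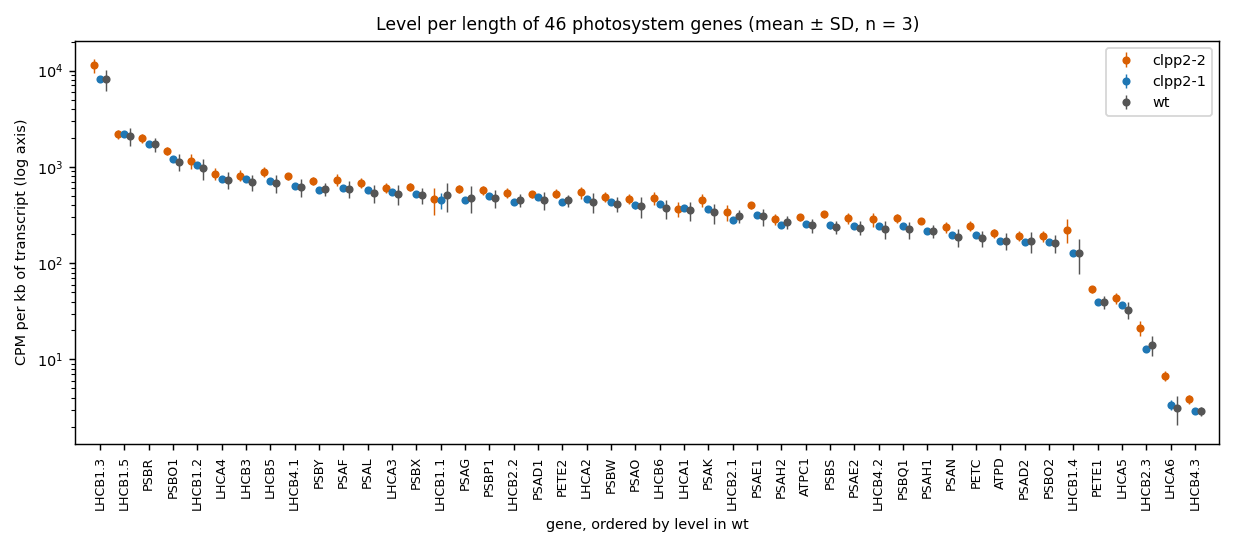
Points give CPM per kb of transcript (log axis), with the SD over 3 libraries as bars, for the 46 genes above 1 CPM ordered by their wt mean. LHCB1.3 lies above all other genes in each genotype, and LHCA6 and LHCB4.3 lie at the low end.

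The comparison of each line with wt asked which of the 47 genes changed with loss of CLPP2. In clpp2-2, 2 of the 47 genes rose and none fell, namely LHCA6 and PETE1. The threshold was an adjusted p of 0.05 (Benjamini-Hochberg over all genes) in edgeR's quasi-likelihood test, which called 10.1% of all genes in either direction and 5.50% as higher. The median log2 fold change of the 47 genes in clpp2-2 was 0.30, with 45 values above 0 and 2 below, against -0.01 over all genes tested, and 21 of the 47 had an unadjusted p under 0.05, where 29.5% of all genes did. In clpp2-1, edgeR called 0 of the 47 genes, where 0.177% of all genes were called, and 0 had an unadjusted p under 0.05, where 6.44% did. DESeq2 and limma-voom also called 0 in clpp2-1, and their shares of all genes are not given here. The median log2 fold change in clpp2-1 was 0.04, with 34 values above 0 and 13 below. For the mean of both lines edgeR called 0 of the 47, where 1.06% of all genes were called. At an unadjusted p under 0.05 there were 4 of the 47, against 20.4% of all genes. DESeq2 and limma-voom called 0 there too, and their shares of all genes are again not given. All 3 clpp2-2 libraries lay above all 3 wt libraries in 4 of the 47 genes (LHCA6, LHCB4.3, PSBS and PETE1), and 17.0% of all genes did so. All 3 clpp2-1 libraries lay above wt in 0 of the 47, and 5.17% of all genes did so. These comparisons share the wt libraries, so they are not independent of each other. DESeq2's Wald test called 13 of the 47 genes higher in clpp2-2, where it called 16.8% of all genes.

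The intervals show which changes these libraries leave possible. In clpp2-1 the 95% intervals of all 46 genes above 1 CPM lay between log2 -0.85 and 0.66, so a doubling or halving of any of them lies outside its interval. The fitted log2 fold changes of these genes ran from -0.17 (LHCB1.1) to 0.16 (LHCA5) in clpp2-1. In clpp2-2 they ran from -0.14 (LHCB1.1) to 1.13 (LHCA6), and 43 of the 46 intervals lay within log2 -1 and 1. The genes whose interval reached above 1 were LHCA6, LHCB1.4 and LHCB2.3.

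**Figure D4:**
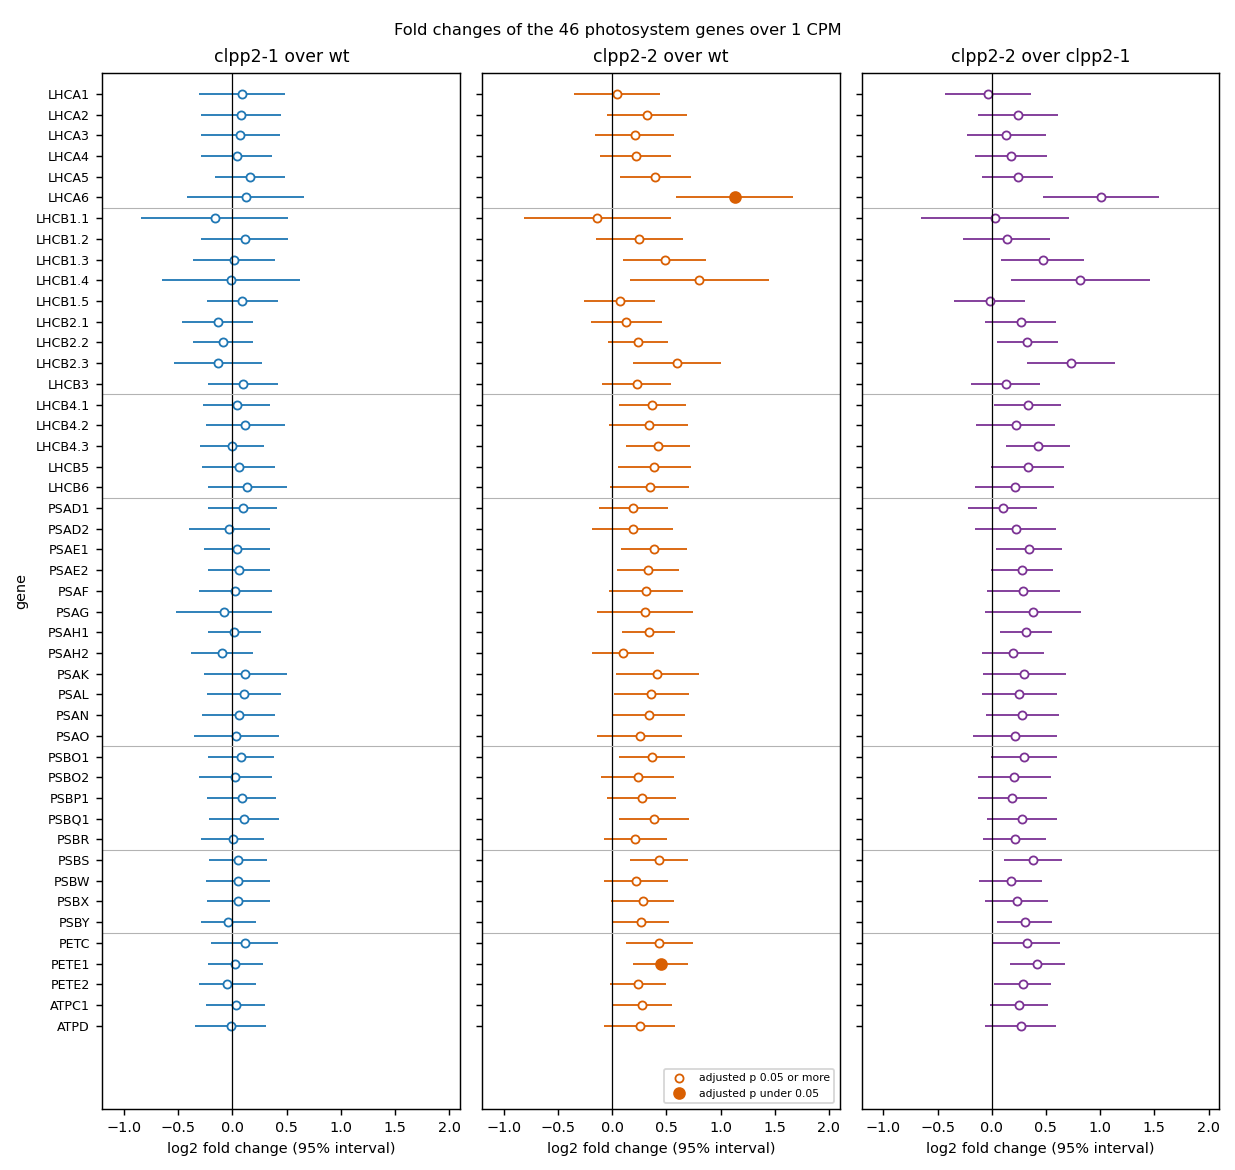
Points are log2 fold changes and lines their 95% intervals from the fit of all 9 libraries, for the 46 genes above 1 CPM, with genes past the threshold filled. The third panel sets clpp2-2 over clpp2-1. In the clpp2-1 panel every interval crosses 0, and in the clpp2-2 panel LHCA6 and PETE1 are filled while nearly all points lie right of 0.

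The LHCI antenna proteins carry chlorophyll around photosystem I. LHCA1 (AT3G54890), LHCA2 (AT3G61470), LHCA3 (AT1G61520) and LHCA4 (AT3G47470) form its belt, while LHCA5 (AT1G45474) and LHCA6 (AT1G19150) are low-abundance proteins that link photosystem I to the chloroplast NADH dehydrogenase-like complex. LHCA6 (chromosome 1, 6612630 to 6613972 in TAIR10.1, plus strand, 3 exons) stood at 7.30, 9.00 and 7.43 CPM in clpp2-2, at 4.41, 3.95 and 3.42 CPM in clpp2-1 and at 3.84, 4.68 and 2.31 CPM in wt. All clpp2-2 libraries lay above all others, and the clpp2-1 libraries lay inside the wt range. The gene rose 2.19-fold in clpp2-2 (log2 1.13, SE 0.237, adjusted p = 0.0254, edgeR), and its values rest on 86 to 318 counts per library. The call was lost without any 1 of the clpp2-2 libraries (adjusted p = 0.0594, 0.0878 and 0.0657 without 1, 2 and 3), without wt 1 (0.0704) or in a fit of clpp2-2 and wt only (0.0517). It was also lost without wt 1 and clpp2-1 1 together. Between clpp2-2 and clpp2-1, LHCA6 had a log2 fold change of 1.01 (adjusted p = 0.0545).

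LHCA1 held the smallest change of the group. It stood at 346, 485 and 485 CPM in clpp2-2, at 465, 475 and 410 CPM in clpp2-1 and at 382, 532 and 357 CPM in wt, and the 3 genotypes overlapped (log2 0.05 in clpp2-2, adjusted p = 0.884). LHCA2, LHCA3, LHCA4 and LHCA5 had log2 fold changes of 0.32, 0.21, 0.22 and 0.40 in clpp2-2 with adjusted p from 0.106 to 0.419. The 6 LHCA genes had a median log2 fold change of 0.27 in clpp2-2 and 0.08 in clpp2-1.

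The major antenna of photosystem II, LHCII, is a trimer of LHCB1, LHCB2 and LHCB3 proteins and holds much of the chlorophyll of a leaf. LHCB1 comes from 5 genes, of which LHCB1.1 (AT1G29920), LHCB1.2 (AT1G29910) and LHCB1.3 lie side by side on chromosome 1 (10472280 to 10479114 in TAIR10.1), and LHCB1.4 (AT2G34430) and LHCB1.5 (AT2G34420) side by side on chromosome 2 (14522524 to 14525918). Each of the 5 has 1 exon. The coding sequences of the chromosome 1 copies were 95.6 to 96.4% identical in pairs and differed at 47 of 804 bases, so short reads from one copy can be assigned to another. The first 90 coding bases are shown to let the copies be compared, from RefSeq (TAIR10.1), 5′ to 3′ on the coding strand, with the 9 bases that differ between copies in capitals.
LHCB1.1: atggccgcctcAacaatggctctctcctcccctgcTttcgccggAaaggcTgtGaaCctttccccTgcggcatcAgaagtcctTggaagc
LHCB1.2: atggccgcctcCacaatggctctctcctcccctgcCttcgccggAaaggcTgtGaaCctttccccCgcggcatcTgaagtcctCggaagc
LHCB1.3: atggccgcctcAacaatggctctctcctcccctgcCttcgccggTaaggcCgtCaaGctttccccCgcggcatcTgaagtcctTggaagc

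The LHCB1 copies had log2 fold changes from -0.14 to 0.80 in clpp2-2. Their 95% intervals overlapped, and a difference between copies was not tested. LHCB1.3 stood at 11397, 14965 and 15524 CPM in clpp2-2, at 10107, 10434 and 9696 CPM in clpp2-1 and at 9233, 12615 and 8087 CPM in wt. Its clpp2-2 libraries lay above every clpp2-1 library, while clpp2-2 1 lay below wt 2 (log2 0.48 in clpp2-2, adjusted p = 0.0987). LHCB1.4 stood at 200, 333 and 347 CPM in clpp2-2, at 174, 159 and 166 CPM in clpp2-1 and at 150, 241 and 113 CPM in wt. It had the largest fold change of the LHCII genes but overlapped wt, through clpp2-2 1 and wt 2 (log2 0.80, SE 0.281, adjusted p = 0.101). LHCB1.1 stood at 383, 708 and 731 CPM in clpp2-2, at 718, 557 and 509 CPM in clpp2-1 and at 657, 894 and 450 CPM in wt. Its genotypes overlapped, and its log2 fold change in clpp2-2 was -0.14 (adjusted p = 0.802). LHCB1.2 and LHCB1.5 had log2 fold changes of 0.25 and 0.07 (adjusted p = 0.381 and 0.792). Because reads of similar copies are split by estimation, the 5 copies were also summed. The LHCB1 sum was 15156, 20043 and 20772 CPM in clpp2-2, 14622, 14741 and 13761 CPM in clpp2-1 and 13001, 17948 and 11468 CPM in wt, and LHCB1.3 gave 72.2% of it. The sum overlapped between clpp2-2 and wt, with a log2 fold change of 0.40 (SE 0.170, adjusted p = 0.157).

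LHCB2 proteins are the LHCII subunits known for phosphorylation in state transitions. LHCB2.1 (AT2G05100) and LHCB2.2 (AT2G05070) had log2 fold changes of 0.13 and 0.24 in clpp2-2 (adjusted p = 0.583 and 0.235). LHCB2.3 (AT3G27690) stood at 25.2, 34.4 and 34.5 CPM in clpp2-2, at 19.9, 18.5 and 18.3 CPM in clpp2-1 and at 20.3, 25.9 and 16.0 CPM in wt. The clpp2-2 libraries lay above all clpp2-1 libraries, and clpp2-2 1 lay below wt 2 (log2 0.60, adjusted p = 0.0668; against clpp2-1 log2 0.73, adjusted p = 0.0611). LHCB2.3 is uncertain, since 37.6% of it overlaps AT3G27700 on the opposite strand, which has more counts than it (a mean of 1467 against 855), and whether reads were counted by strand is not stated. LHCB3 (AT5G54270), the remaining partner in the trimer, had a log2 fold change of 0.23 (adjusted p = 0.319). The 9 LHCII genes had a median of 0.24 in clpp2-2 and -0.01 in clpp2-1.

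The minor antenna proteins are single subunits between LHCII and the core of photosystem II. LHCB4.1 (AT5G01530), LHCB4.2 (AT3G08940), LHCB5 (AT4G10340) and LHCB6 (AT1G15820) had log2 fold changes of 0.37, 0.34, 0.39 and 0.35 in clpp2-2, with adjusted p from 0.112 to 0.196. LHCB4.3 (AT2G40100), a rarer isoform, stood at 4.56, 5.69 and 5.08 CPM in clpp2-2, at 3.84, 3.98 and 3.61 CPM in clpp2-1 and at 3.89, 4.18 and 3.39 CPM in wt. All clpp2-2 libraries of LHCB4.3 lay above all others, with a log2 fold change of 0.42 that did not pass the test (adjusted p = 0.0738). LHCB4.2 had the smallest fold change of the group. Its level was 295, 401 and 401 CPM in clpp2-2, 319, 317 and 304 CPM in clpp2-1 and 255, 361 and 250 CPM in wt. The minor antenna had the highest median of the role groups in clpp2-2, 0.37, and a median of 0.06 in clpp2-1.

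The nuclear subunits of photosystem I surround its plastid-encoded core. PSAD1 (AT4G02770), PSAD2 (AT1G03130), PSAE1 (AT4G28750) and PSAE2 (AT2G20260) encode the stromal subunits where ferredoxin docks, and PSAF (AT1G31330) and PSAN (AT5G64040) the lumenal side where plastocyanin docks. PSAG (AT1G55670) and PSAK (AT1G30380) bind antenna proteins, while PSAH1 (AT3G16140), PSAH2 (AT1G52230), PSAL (AT4G12800) and PSAO (AT1G08380) form the docking side for LHCII. None of the 12 passed the test in either line. In clpp2-2 all 12 log2 fold changes were above 0, from 0.10 (PSAH2) to 0.42 (PSAK), 6 had an unadjusted p under 0.05 (29.5% of all genes did), and the median was 0.32. In clpp2-1 9 were above 0 and 3 below, with a median of 0.04 and none at an unadjusted p under 0.05.

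PSAK stood at 287, 363 and 386 CPM in clpp2-2, at 269, 298 and 275 CPM in clpp2-1 and at 256, 320 and 199 CPM in wt. The clpp2-2 and wt libraries overlapped through clpp2-2 1 and wt 2 (adjusted p = 0.141). PSAH2 stood at 170, 223 and 213 CPM in clpp2-2, at 181, 182 and 165 CPM in clpp2-1 and at 185, 217 and 162 CPM in wt, with all 3 genotypes overlapping (adjusted p = 0.631). PSAH1 had a log2 fold change of 0.34 in clpp2-2 (adjusted p = 0.0777), the lowest adjusted p of photosystem I. PSAG is overlapped over 61.4% of its length by AT1G55673 on the opposite strand, which was not analysed here. LHCB1.5 likewise lies within a long noncoding RNA gene on the opposite strand, AT2G08665, not analysed here. Opposite-strand genes not analysed here also overlap PSAE1 (AT4G28755, 33.4% of its length) and LHCB6 (AT1G05207, 25.2%).

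The oxygen-evolving proteins sit on the lumenal side of photosystem II and hold its manganese cluster in place. PSBO1 (AT5G66570) and PSBO2 (AT3G50820) encode the manganese-stabilizing protein, PSBP1 (AT1G06680) and PSBQ1 (AT4G21280) the proteins that retain calcium and chloride, and PSBR (AT1G79040) a protein needed to bind them. None of the 6 genes, PSBQ2 (AT4G05180) included, passed the test. PSBQ1 had the highest fold change of the group (log2 0.39, adjusted p = 0.114). Its level was 257, 312 and 306 CPM in clpp2-2, 251, 250 and 220 CPM in clpp2-1 and 216, 272 and 181 CPM in wt. Its clpp2-2 libraries lay above those of clpp2-1 and overlapped wt 2. PSBO1, PSBO2, PSBP1 and PSBR had log2 fold changes of 0.37, 0.23, 0.27 and 0.21 in clpp2-2, and of 0.08, 0.03, 0.08 and 0.00 in clpp2-1.

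Of the photosystem II membrane subunits, PSBS (AT1G44575) senses the acidity of the lumen and turns on the release of excess light energy as heat. PSBS (chromosome 1, 16870221 to 16873427, plus strand, 3 exons) stood at 447, 519 and 500 CPM in clpp2-2, at 388, 397 and 339 CPM in clpp2-1 and at 360, 419 and 305 CPM in wt. All clpp2-2 libraries lay above all others, and the log2 fold change of 0.44 (SE 0.117) just missed the threshold (adjusted p = 0.0506). PSBW (AT2G30570), PSBX (AT2G06520) and PSBY (AT1G67740) encode small subunits and had log2 fold changes of 0.22, 0.28 and 0.27 in clpp2-2 (adjusted p = 0.283, 0.178 and 0.158). PSBW, with the lowest fold change of the 4, stood at 403, 493 and 500 CPM in clpp2-2, at 415, 430 and 393 CPM in clpp2-1 and at 369, 481 and 346 CPM in wt, with overlap between all genotypes.

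Plastocyanin, the copper protein that carries electrons to photosystem I, is encoded by PETE1 (AT1G76100) and by PETE2 (AT1G20340), the main isoform. PETE1 (chromosome 1, 28553883 to 28554930, minus strand, 1 exon) stood at 51.2, 56.5 and 60.3 CPM in clpp2-2, at 43.1, 43.6 and 38.9 CPM in clpp2-1 and at 40.5, 47.8 and 35.0 CPM in wt. All clpp2-2 libraries lay above all others, and PETE1 rose 1.36-fold (log2 0.45, SE 0.112, adjusted p = 0.0417, edgeR). The call was lost without any 1 library other than wt 2 (adjusted p from 0.0565 to 0.119), and with the replicate number as a block (0.0518). It was also lost in a fit of clpp2-2 and wt only, without wt 1 and clpp2-1 1 together, and under a 1.5-fold limit. PETE2, which gave 93.2% of plastocyanin counts, stood at 625, 735 and 774 CPM in clpp2-2, at 579, 613 and 557 CPM in clpp2-1 and at 591, 698 and 520 CPM in wt. PETE2 overlapped between clpp2-2 and wt (log2 0.24, adjusted p = 0.206), and the sum of both plastocyanin genes had a log2 fold change of 0.26 (adjusted p = 0.165). PETC (AT4G03280), the Rieske protein of the cytochrome complex, and ATPC1 (AT4G04640) and ATPD (AT4G09650), the gamma and delta subunits of ATP synthase, had log2 fold changes of 0.44, 0.28 and 0.25 in clpp2-2 (adjusted p = 0.0751, 0.157 and 0.277).

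Summing the related copies of each family called no family. The copies were 86.8 to 96.4% identical in coding sequence in LHCB1, but 60.3% in PETE, 65.2 to 81.1% in LHCB4 and 64.0 to 77.7% in LHCB2. The LHCB1, LHCB2, LHCB4, PSAD, PSAE, PSAH, PSBO, PSBQ and PETE sums had log2 fold changes from 0.20 (PSAD) to 0.40 (LHCB1) in clpp2-2, and edgeR called 0 of 9 in each of the 4 comparisons (DESeq2 4 of 9 and limma-voom 0 of 9 in clpp2-2 against wt). Without wt 2, 8 of the 9 sums were called in clpp2-2, where 20.7% of all genes were called with the copies kept apart. In clpp2-1 the 9 values ran from -0.11 (LHCB2) to 0.10 (PSBQ).

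The wt 2 library changed the count of calls more than any other library. Without wt 2, 35 of the 47 genes were called higher in clpp2-2 and none lower, where 20.7% of all genes were called. Without wt 3, in which all 47 genes were lowest, 1 of the 47 was called, and leaving out wt 1 or any 1 of the clpp2-2 libraries left 0 calls. For these other fits the share of all genes called is not given here. Since wt 2 held the highest wt level of every gene, leaving it out lowered each wt mean. The SE of the clpp2-2 fold change moved too, from 0.135 to 0.0809 for LHCB4.1 and from 0.106 to 0.0671 for PSAH1. For LHCB4.3 the SE rose from 0.130 to 0.139. The part of the mean and of the spread in the added calls was not tested. The 35 genes had log2 fold changes from 0.36 (PETE2) to 1.37 (LHCA6) and adjusted p from 0.00498 to 0.0442 in edgeR. They include all 5 minor antenna genes, all 4 membrane subunits, 10 of 12 photosystem I genes, 4 of 6 LHCI genes, 5 of 9 LHCII genes, 3 of 6 oxygen-evolving genes and 4 of the 5 genes of electron transfer and ATP synthase. The 12 not called were LHCA1, LHCA4, LHCB1.1, LHCB1.2, LHCB1.5, LHCB2.1, PSAD2, PSAH2, PSBO2, PSBQ2, PSBR and ATPD. In clpp2-1, 0 of the 47 were called without wt 2 (0.307% of all genes), and the median log2 fold change was 0.20. For the mean of both lines 14 of the 47 were called without wt 2, where 10.6% of all genes were.

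**Figure D5:**
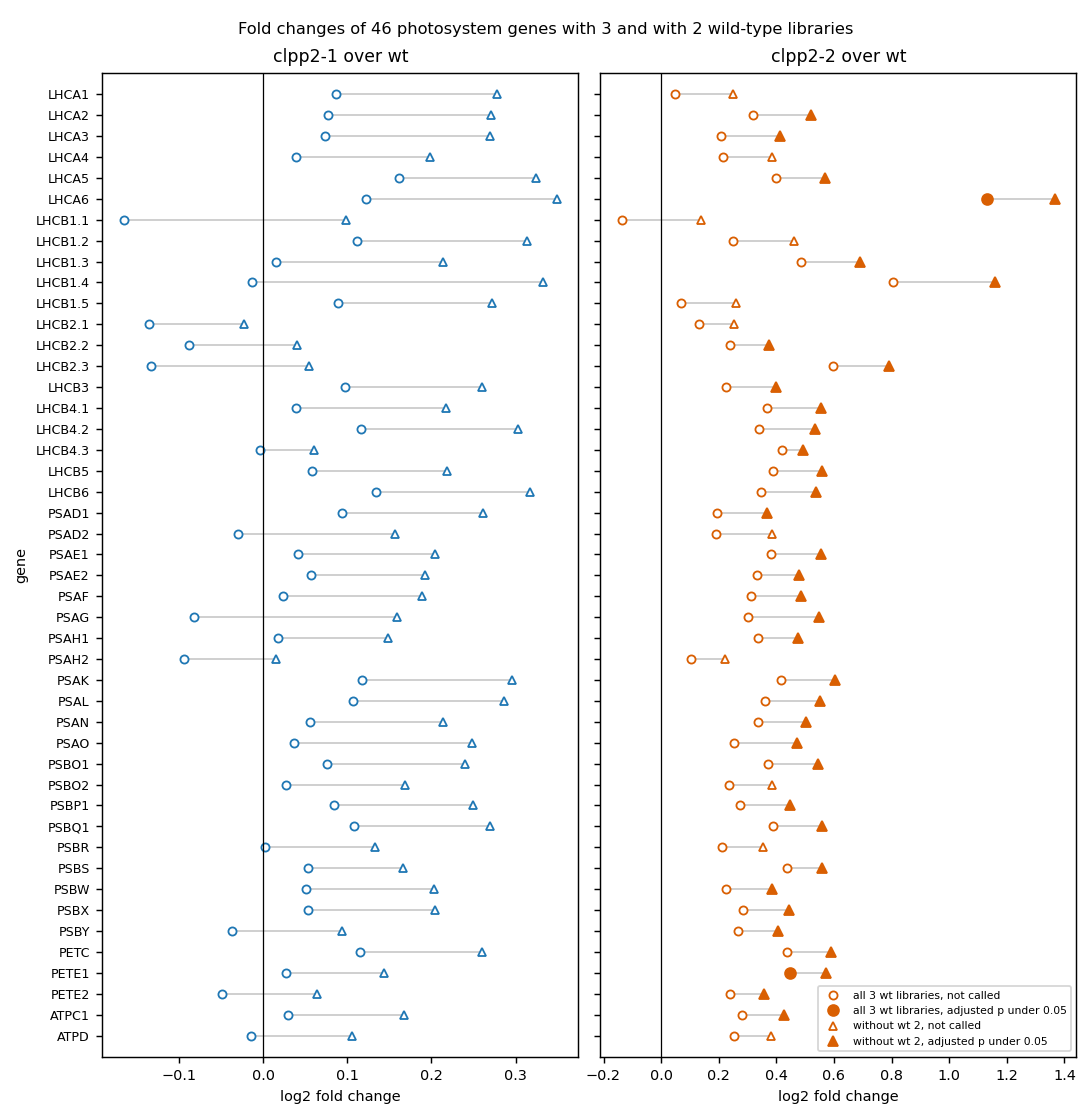
Circles are log2 fold changes with all 3 wt libraries and triangles those without wt 2, for the 46 genes above 1 CPM, with genes past the threshold filled. The x scales of the panels differ. Every triangle lies right of its circle, 35 triangles are filled in the clpp2-2 panel, and none is filled in the clpp2-1 panel.

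The lines were also compared with each other, which leaves the wt libraries out of the means compared. Between clpp2-2 and clpp2-1, edgeR called 0 of the 47 genes, where 3.97% of all genes were called, with 6 called by DESeq2 (8.75% of all genes) and 1 by limma-voom (4.02%). At an unadjusted p under 0.05 there were 14 of the 47, against 21.0% of all genes. The median log2 fold change was 0.27, with 45 values above 0 and 2 below, LHCA1 (-0.04) and LHCB1.5 (-0.02). The wt libraries still enter this test through the gene filter, the scaling, the shared spread and the adjustment of p. The count became 9 without wt 2, 3 without wt 3 and 7 in a fit of clpp2-2 and clpp2-1 only. The share of all genes called in these fits is not given here, so these counts are not read as a result about the 47 genes. All 3 clpp2-2 libraries lay above all 3 clpp2-1 libraries in 22 of the 47 genes, and 15.7% of all genes did so. The genes with the lowest adjusted p were LHCA6 (0.0545), LHCB2.3 (0.0611) and PETE1 (log2 0.42, adjusted p = 0.0778).

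Other genes of chloroplast biogenesis and light harvesting, from lists chosen by function, gave the setting of these values. Counts of these genes in clpp2-2 stand beside 5.50% of all genes called higher and 4.57% called lower. The lists hold only 5 to 24 genes, and no test compared them with each other or with all genes. Of 24 chlorophyll synthesis genes 6 rose in clpp2-2 and none in clpp2-1, with medians of 0.31 and 0.05. PORA, PORB and PORC encode the light-dependent protochlorophyllide oxidoreductases. PORC (AT1G03630) stood at 16.8, 17.3 and 16.5 CPM in clpp2-2, at 9.59, 11.1 and 9.67 CPM in clpp2-1 and at 9.71, 10.5 and 7.10 CPM in wt, with every clpp2-2 library above all others (log2 0.89 over wt, adjusted p = 0.00833). PORB (AT4G27440) had a log2 fold change of 0.78 in clpp2-2 (adjusted p = 0.0134). PORA (AT5G54190), below 1.5 CPM in all libraries, had a log2 fold change of 2.12 (adjusted p = 0.0306), and GSA2 (AT3G48730), an enzyme of aminolevulinate synthesis, 0.44 (adjusted p = 0.0341). With 1 library left out, PORC kept its call throughout. The PORB call was lost without clpp2-2 2 (0.0541) or wt 1 (0.0532), and those of PORA and GSA2 were lost without any 1 of the clpp2-2 libraries, wt 1, wt 3 or clpp2-1 3 (adjusted p up to 0.103), and that of GSA2 also without clpp2-1 1 (0.0506).

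Genes that insert, build and protect the photosystems included several that rose in clpp2-2. Of 5 import and insertion genes 1 rose, CPSRP54 (AT5G03940), a subunit of the chloroplast signal recognition particle that brings LHC proteins to the membrane (log2 0.39, adjusted p = 0.0145). Of 18 assembly and repair genes 5 rose, among them FTSH1 (AT1G50250), a thylakoid protease subunit (log2 0.32, adjusted p = 0.0137), Y3IP1 (AT5G44650; log2 0.38, adjusted p = 0.0266), LPA1 (AT1G02910; log2 0.31, adjusted p = 0.0294) and PSB28 (AT4G28660; log2 0.39, adjusted p = 0.0417). Of 9 LHC-like genes 3 rose, ELIP2 (AT4G14690), LIL3:2 (AT5G47110; log2 0.53, adjusted p = 0.0182) and LIL3:1 (AT4G17600; log2 0.51, adjusted p = 0.0314). ELIP2, a light-stress protein, stood at 10.02, 12.4 and 11.7 CPM in clpp2-2, at 5.75, 4.36 and 3.75 CPM in clpp2-1 and at 5.52, 4.54 and 3.90 CPM in wt (log2 1.29, adjusted p = 0.00658). Every clpp2-2 library of ELIP2 lay above all others, and wt 2 did not stand apart. Of 10 antenna regulation genes none passed the test in clpp2-2, and 4 had an unadjusted p under 0.05, where 29.5% of all genes did. Of 8 other electron transfer genes 1 rose, the ferredoxin gene FD1 (AT1G10960, log2 0.40, adjusted p = 0.0440, edgeR). In clpp2-1 none of these genes passed the test. The ELIP2 call held without any 1 library. The call of CPSRP54 was lost without clpp2-2 2 (0.0573) or wt 1 (0.0546), and that of FTSH1 without clpp2-2 2 (0.0566) or clpp2-2 3 (0.0510). Those of Y3IP1, LPA1, PSB28, FD1, LIL3:1 and LIL3:2 were lost without any 1 of the clpp2-2 libraries or without wt 1, and all but LIL3:2 also without wt 3 (adjusted p up to 0.125). Without clpp2-1 3 the calls of LPA1, PSB28, FD1 and LIL3:1 were lost, without clpp2-1 2 those of PSB28 and FD1, and without clpp2-1 1 that of PSB28.

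Of 15 tested regulators of photosynthesis genes 2 rose in clpp2-2. GLK2 (AT5G44190), a transcription factor known to activate antenna and chlorophyll genes, stood at 63.2, 74.5 and 72.4 CPM in clpp2-2, at 58.0, 52.5 and 52.7 CPM in clpp2-1 and at 53.9, 61.2 and 48.0 CPM in wt (log2 0.37, adjusted p = 0.0482). ABI4 (AT2G40220), a transcription factor of abscisic acid and sugar responses, stood at 8.49, 7.02 and 6.83 CPM in clpp2-2, at 1.12, 0.845 and 1.79 CPM in clpp2-1 and at 0.883, 1.81 and 0.350 CPM in wt (log2 2.87, adjusted p = 0.0150). Both had every clpp2-2 library above all others. The GLK2 order of the wt libraries was the one seen in the 47 photosystem genes, and also in PORB, PORC and GSA2. Of 5 genes for Rubisco, the enzyme of carbon fixation, and its activase, RBCS2B (AT5G38420; log2 0.91, adjusted p = 0.0102) and RBCS3B (AT5G38410; log2 0.72, adjusted p = 0.0366) rose in clpp2-2. RBCS2B and RBCS3B are close copies of each other, so their split is uncertain. Of 9 clock genes 2 fell in clpp2-2, where 4.57% of all genes did, PRR9 (AT2G46790; log2 -0.66, adjusted p = 0.00779) and GI (AT1G22770; log2 -0.31, adjusted p = 0.00921), and the part of the clock in the photosystem values was not tested. The calls of RBCS2B and PRR9 held without any 1 library. That of ABI4 was lost without clpp2-2 2 (0.0514) or wt 1 (0.0566) and that of GI without clpp2-2 2 (0.0538). Those of GLK2 and RBCS3B were lost without any 1 library other than wt 2 (adjusted p up to 0.143), and that of GLK2 also with the replicate number as a block (0.0642).

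The plastid-encoded partners of these proteins varied less between wt libraries. Summed over 19 plastid photosystem genes the level was 249, 242 and 257 CPM in clpp2-2, 202, 238 and 197 CPM in clpp2-1 and 168, 189 and 178 CPM in wt, with all clpp2-2 and clpp2-1 libraries above all wt libraries. Of the wt libraries wt 2 was again highest, by 9.02% over the mean of wt 1 and wt 3, against 40.6% for the 47 nuclear genes, while wt 1 and not wt 3 was lowest. Of the 19, 3 rose in clpp2-2 and none in clpp2-1 (edgeR). In clpp2-1 4 of the 19 had an unadjusted p under 0.05, where 6.44% of all genes did. The 3 were psbC (ATCG00280, log2 0.60, adjusted p = 0.00303), psbD (ATCG00270, log2 0.60, adjusted p = 0.0201) and psbB (ATCG00680, log2 0.48, adjusted p = 0.0349). These encode core proteins of photosystem II, and psbC and psbD overlap in the plastid genome, so their reads cannot be fully told apart. The psbC call held without any 1 library. That of psbD was lost without clpp2-2 1, clpp2-2 3, wt 1 or wt 3 (adjusted p from 0.0521 to 0.0751), and that of psbB without any 1 of the clpp2-2 libraries, wt 1, wt 3 or clpp2-1 3 (0.0572 to 0.116). The libraries were primed with random hexamers, per the labels, and the labels name no step that removed or selected RNA classes. The 19 plastid genes took only 0.0168 to 0.0250% of all counts, where the 47 nuclear genes took 2.75 to 4.35%. How much of the plastid RNA these libraries captured was not tested, so the plastid values describe only the reads present.

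The windows before the genes were searched for short motifs, in the 250 bases upstream of each annotated start and on both strands, with 27443 genes as the background. CCAATC was in 14 of the 47 windows (29.8%, against 10.2% of all), GATAAG, the I-box, in 11 (23.4%, against 12.3%), and CACGTG, the G-box, in 9 (19.1%, against 6.49%). AAAATATCT, the evening element, was in 2 (4.26%, against 2.36%), and TATAAA, the TATA box, in 22 (46.8%, against 47.3%). CACGTG reads the same on both strands, and in the LHCA6 window TATAAA matches on opposite strands overlap. A match is a description of letters only. The windows of the genes called in clpp2-2 (LHCA6, PETE1), of the most abundant gene (LHCB1.3) and of a minor antenna gene with several matches (LHCB4.1) are shown from the TAIR10.1 genome of RefSeq, 5′ to 3′ on the strand of the gene, with matches in capitals.
LHCA6 upstream window, chr1:6612380-6612629, plus strand: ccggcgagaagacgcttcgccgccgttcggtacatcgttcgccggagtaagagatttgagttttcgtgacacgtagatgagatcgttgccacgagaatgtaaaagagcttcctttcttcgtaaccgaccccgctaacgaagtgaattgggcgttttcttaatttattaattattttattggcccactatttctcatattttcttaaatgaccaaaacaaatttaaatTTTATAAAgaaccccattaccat
PETE1 upstream window, chr1:28554931-28555180, minus strand: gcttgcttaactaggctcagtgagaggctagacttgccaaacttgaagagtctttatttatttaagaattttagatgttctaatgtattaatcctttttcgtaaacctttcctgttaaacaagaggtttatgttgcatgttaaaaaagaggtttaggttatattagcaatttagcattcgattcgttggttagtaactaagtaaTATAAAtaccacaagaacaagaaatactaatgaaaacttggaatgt
LHCB1.3 upstream window, chr1:10477635-10477884, plus strand: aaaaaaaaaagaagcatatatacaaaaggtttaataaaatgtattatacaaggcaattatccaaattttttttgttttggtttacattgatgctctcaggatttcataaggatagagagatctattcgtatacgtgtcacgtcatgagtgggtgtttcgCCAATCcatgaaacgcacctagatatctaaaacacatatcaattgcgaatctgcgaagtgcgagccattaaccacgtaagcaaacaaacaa
LHCB4.1 upstream window, chr5:208616-208865, plus strand: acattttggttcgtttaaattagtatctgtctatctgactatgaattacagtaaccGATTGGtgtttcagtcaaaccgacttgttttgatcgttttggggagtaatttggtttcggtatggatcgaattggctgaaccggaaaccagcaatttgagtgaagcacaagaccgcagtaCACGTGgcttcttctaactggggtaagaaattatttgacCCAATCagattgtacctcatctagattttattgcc

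In these windows LHCA6 and PETE1 held TATAAA and none of the other motifs, LHCB1.3 held CCAATC, and LHCB4.1 held CCAATC on both strands and the G-box. LHCB1.1 and LHCB1.2, the neighbours of LHCB1.3, held no match.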

How the data were processed

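RNA of 9 libraries (3 per genotype) was sequenced. The deposited table holds estimated counts per gene as whole numbers, with all 9 libraries in one table. Per the submitters' processing notes, Salmon 0.14.0, FastQC, DESeq, DESeq2 and TAIR10 were named, without roles; these sources do not say whether the values were scaled before deposit. The table lists 22254 genes, each with at least 10 counts in all.

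Counts were tested with edgeR 4.0.16 (quasi-likelihood, TMM scaling, filterByExpr) in one fit of the 9 libraries with 4 contrasts, and p-values were adjusted by Benjamini-Hochberg over the 20294 genes kept (1960 removed). CPM uses TMM-scaled library sizes, and CPM per kb the longest TAIR10.1 transcript. Alternatives were DESeq2 1.42.0, limma-voom (limma 3.58.1), DESeq2 size factors, no low-count filter, library sizes without organelle genes, only the groups compared, each library left out, wt 1 and clpp2-1 1 left out together, a 1.5-fold limit, and a replicate block. Related copies of 9 families were also summed. Other genes were named by a rule: up to 4 called per list, by smallest adjusted p. The members and lists were chosen with earlier results of these data known. Same-numbered libraries deviated together between clpp2-1 and wt (r = 0.253, 0.21 and 0.115 over 11806 genes), but not between clpp2-2 and wt (0.061, 0.087 and -0.006). Between clpp2-1 and clpp2-2 the same-numbered r were -0.169, -0.01 and -0.179, and pairs with different numbers reached 0.174. No replicate pair agreed within sampling noise (chi-square per gene 6.39 to 33.2). R 4.3.3 and Python 3.11.15 were used, and the fit was tested on simulated data.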

Additional observations from a re-analysis of the deposited data

Results flagged for a closer look

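None of the 47 photosystem genes differed between the lines past the threshold. Of the 22 other genes named for a call in clpp2-2 against wt, 9 were higher in clpp2-2 than in clpp2-1 (edgeR, fit of all 9 libraries, adjusted over all genes), where 3.97% of all genes were called in either direction. These genes were picked for a change in the same clpp2-2 libraries, which favours a difference between the lines, so the count is a description and not independent evidence. In chlorophyll synthesis the log2 fold changes were 0.74 for PORC (adjusted p = 0.0257), 0.68 for PORB (0.0325) and 2.64 for PORA (0.0274). CPSRP54 had 0.32 (0.0389), FTSH1 0.25 (0.0469), ELIP2 1.299 (0.0101) and LIL3:2 0.47 (0.0391). ABI4 had 2.57 (0.0313) and RBCS2B 0.93 (0.0146). Both lines carry low CLPP2 RNA, and what else differs between them was not tested.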

How the results depend on the processing

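Of the 47 genes, the main test called 2 in clpp2-2 against wt; DESeq2's Wald test called 13, a fit of only the groups compared 0, a fit without wt 1 and clpp2-1 1 called 0, and a limit of at least 1.5-fold left 1. Leaving out 1 library gave 0 to 35 calls, with 35 without wt 2 only. Between clpp2-2 and clpp2-1 the count of 0 became 6 by DESeq2, 1 by limma-voom, 7 with only the groups compared, and 0 to 9 with 1 library left out. For the mean of both lines, 1 library left out gave 0 to 14. Of the 9 summed families DESeq2 called 4 in clpp2-2, and 1 library left out gave 0 to 8 in clpp2-2 and 0 to 4 for both lines. The share of all genes called moved with the setting too, from 10.1% in the main test to 20.7% without wt 2 in clpp2-2 against wt. These counts alone are therefore not read as results about the 47 genes. The cause of the shifts in counts was not tested. With the replicate number as a block, 2 genes were called in clpp2-2 and 0 in each of the other 3 comparisons; PETE1 was not among them (adjusted p = 0.0518), and GLK2 was also lost (0.0642), the only named calls this pairing ended. In clpp2-1 every alternative called 0. The median log2 fold change of the 47 genes in clpp2-2 ran from 0.19 to 0.47. No named gene reversed.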
